A study of Mus musculus with 8 samples.

Results

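The genes of the smooth muscle contractile apparatus were followed in 2 organs of pregnant mice. The set holds 33 genes chosen by name, and each was found as 1 row, by its symbol, among the 19884 genes of the count table. They were sorted by role into 8 thin filament genes, 6 genes of myosin and its regulation, 12 genes of the cytoskeleton and its attachment to the membrane, 2 transcription factor genes and 5 genes of calcium and cyclic GMP (cGMP) signalling.

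Total RNA was sequenced from the whole brain and the whole uterus of adult wild-type C57BL/6J females, aged 6 to 10 weeks, that had been mated with fertile males and received no treatment. Both organs were taken on gestation day 4, when blastocysts were present in the uterine flush, and each organ gave 4 libraries. Both groups are whole organs of pregnant animals, so the comparison is between organs and holds no non-pregnant control. The labels do not say whether a brain and a uterus with the same number came from 1 mouse.

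Smooth muscle shortens when a rise in calcium activates myosin light chain kinase, which phosphorylates the regulatory light chain of myosin. Myosin then pulls on actin filaments, which are anchored in dense bodies and in plaques at the membrane. Myosin phosphatase reverses the phosphorylation, and cGMP signalling, set off by nitric oxide, favours relaxation. Many of the genes are switched on by serum response factor (SRF), which binds a DNA motif called the CArG box, together with its cofactor myocardin. In the uterus these proteins make up the myometrium, and in the brain they are known from the muscle cells and pericytes that wrap blood vessels.

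The libraries held 35394603 to 47790178 counts. Levels are given in CPM, the count per 1000000 counts of a library after TMM scaling, as mean ± SD over the 4 libraries of an organ. Comparisons between genes use RPKM, which is CPM per kilobase of exon. A log2 fold change is uterus over brain and is followed by its standard error. Calls are from the edgeR quasi-likelihood test with Benjamini-Hochberg adjustment at 0.05 over the 16074 genes that passed the filter on low counts, as all 33 members did. The organ labels were borne out by markers: 6 neuron genes summed to 5318 to 5547 CPM in brain and 9.14 to 13.3 in uterus, and 6 epithelial genes to 5.95 to 9.15 in brain and 612 to 728 in uterus.

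Contractile genes were far more abundant in uterus. Of the 33 members, 30 were higher in uterus, against 43.5% of all genes tested. Casq2 and Ldb3 were higher in brain, where 43.6% of all genes tested were higher, and Sgcd was not called. A total of 23 members were higher in uterus by more than 2-fold in edgeR's glmTreat test, against 23.5% of all genes tested. No member was higher in brain by more than 2-fold, against 25.8% of all genes tested, and the count was also 0 at an unadjusted p under 0.05 and by DESeq2 and limma-voom. The lowest uterus library lay above the highest brain library for 30 members, against 42.0% of all genes tested. The reverse held for 2 members, against 42.0%. The median log2 fold change of the members was 3.50, with a range of -0.58 to 11.64, beside 0.01 over all genes tested. The genes were chosen because they are known from smooth muscle, and earlier results of these data were known when they were chosen. In whole organs, fewer cells of a type and less RNA per cell cannot be told apart.

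**Figure D1:**
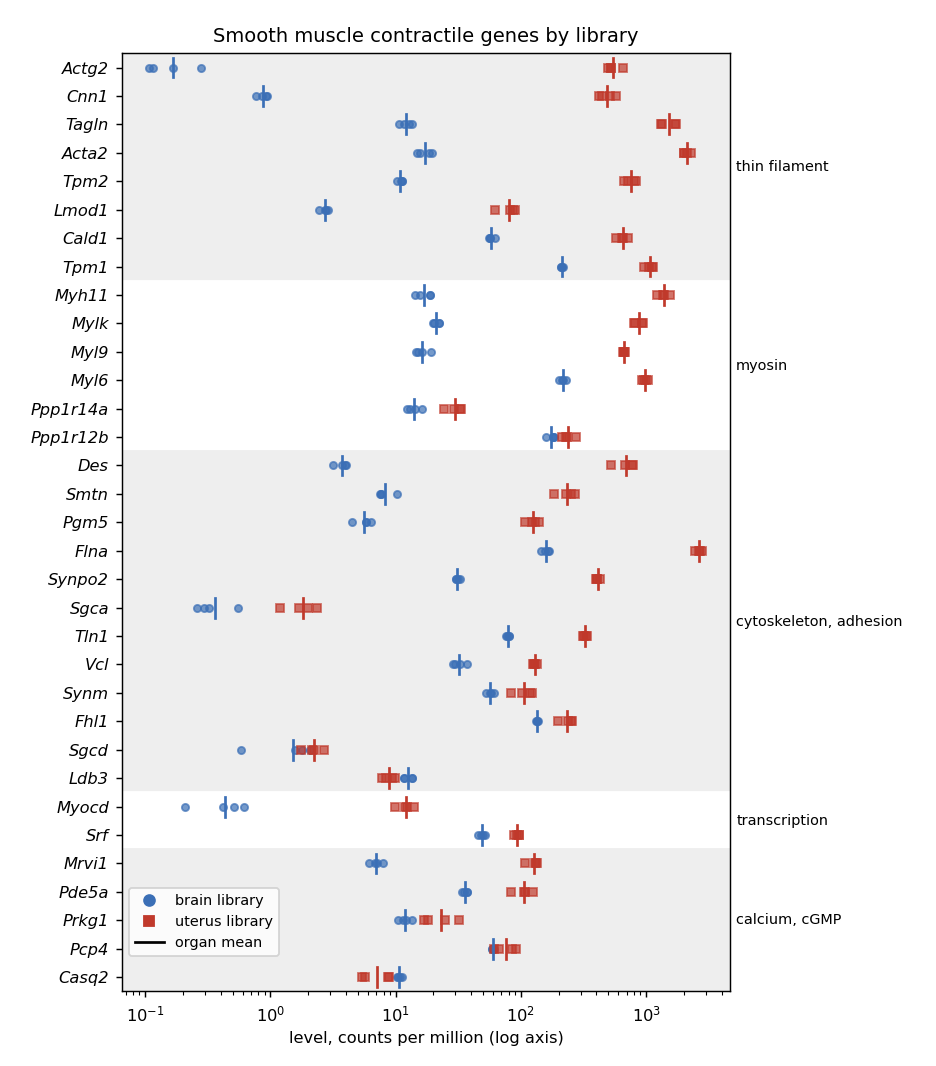
Level of each of the 33 genes in CPM on a log axis, grouped by role, with brain libraries as circles, uterus libraries as squares and organ means as vertical lines. The organs are far apart for the thin filament genes, overlap for Sgcd, and stand in the reverse order for Ldb3 and Casq2.

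The 33 genes took 0.134 ± 0.00199% of all counts in brain and 1.83 ± 0.156% in uterus. The brain libraries stood at 0.132, 0.137, 0.133 and 0.135%, and the uterus libraries at 1.79, 1.92, 1.99 and 1.63%. The groups did not overlap (two-sided exact permutation test over libraries, p = 0.0286, the smallest that 4 against 4 can give). The counts were also spread differently over the members. The 10 members with the highest counts in uterus held 75.8 ± 0.261% of the set's counts there and 46.5 ± 1.08% in brain.

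Thin filament genes differed most. All 8 were higher in uterus and all 8 passed the 2-fold test, with a median log2 fold change of 6.52. Actg2 encodes the gamma actin of visceral smooth muscle and lies on chromosome 6 (GRCm38, 83512905 to 83536265, minus strand). It had 4, 5, 12 and 7 raw counts in the brain libraries and 19691, 27547, 20585 and 22439 in the uterus libraries. In CPM this was 0.108, 0.115, 0.277 and 0.166 in brain against 496, 648, 522 and 523 in uterus. Its log2 fold change of 11.64 ± 0.20 ranked 27 among all genes tested (edgeR adjusted p = 1.1e-11). So few brain counts leave the size of the fold loosely fixed, though not its direction.

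Acta2, the smooth muscle alpha actin of blood vessels and other muscle layers (chromosome 19, 34241090 to 34255590, minus strand), was not rare in brain. It stood at 14.8, 19.7, 18.5 and 15.6 CPM there and at 2110, 2015, 2276 and 2017 CPM in uterus. The log2 fold change was 6.94 ± 0.12. Per kilobase of exon Acta2 was the highest member in uterus, at 958 ± 55.8 RPKM, rank 21 of all genes, and Actg2 stood at 351 ± 43.9 RPKM. The 2 actins therefore stood in different proportions. Actg2 made up 1.35 ± 0.554% of the sum of both per kilobase in brain and 26.8 ± 3.09% in uterus. This ratio was chosen after the levels had been seen and was not tested.

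Cnn1 encodes calponin, an actin-binding protein that slows myosin. It was at 0.918, 0.761, 0.855 and 0.946 CPM in the brain libraries and at 444, 519, 572 and 422 CPM in the uterus libraries, a log2 fold change of 9.13 ± 0.15. Tagln encodes transgelin, which bundles actin filaments. It was at 11.7, 13.6, 12.8 and 10.6 CPM in brain and at 1327, 1734, 1704 and 1307 CPM in uterus. Its log2 fold change was 6.96 ± 0.15, close to that of Acta2, and at 764 ± 117 RPKM it was the next member after Acta2 in uterus. For both genes the uterus libraries ranged over less than 2-fold.

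Tropomyosins lie along the actin filament. Tpm2 rose from 10.9 ± 0.449 CPM in brain to 750 ± 76.0 in uterus (log2 fold change 6.10 ± 0.10). Tpm1 was already plentiful in brain, at 211 ± 4.63 CPM, and reached 1067 ± 73.6 in uterus (2.34 ± 0.07). Lmod1, a leiomodin that starts new actin filaments, went from 2.71 ± 0.189 to 80.2 ± 12.2 CPM (4.88 ± 0.13). Caldesmon, encoded by Cald1 and made in long smooth muscle and short nonmuscle forms, went from 57.5 ± 2.86 to 649 ± 57.0 CPM (3.50 ± 0.08). Gene counts do not separate the forms of Tpm1 or Cald1. Tpm1 and Cald1, both also made outside muscle, had the smallest differences of the 8.

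Of the myosin genes, all 6 were higher in uterus and 4 passed the 2-fold test, with a median of 3.77. Myh11, the smooth muscle myosin heavy chain (chromosome 16, 14194535 to 14291372, minus strand), stood at 15.7, 18.8, 18.8 and 14.3 CPM in brain and at 1358, 1556, 1391 and 1228 CPM in uterus. The log2 fold change was 6.36 ± 0.13 (edgeR adjusted p = 3.5e-11). Myl9, its regulatory light chain, stood at 14.7, 16.2, 19.1 and 15.2 CPM in brain and at 670, 674, 663 and 654 CPM in uterus (5.35 ± 0.09). The coefficient of variation of Myl9 over the uterus libraries, 1.30%, was the smallest of any member. Mylk, the kinase that phosphorylates this light chain, went from 21.1 ± 1.33 to 871 ± 70.3 CPM (5.36 ± 0.09), beside 5.35 ± 0.09 for its substrate.

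Myl6, the essential light chain shared by smooth muscle and nonmuscle myosin, was at 67.6 ± 3.88 RPKM in brain and 309 ± 14.1 RPKM in uterus (log2 fold change 2.19 ± 0.06). By RPKM it was the most abundant member in brain, but this rank depends on the length used. The union of exons and the longest transcript are 3187 and 3040 bases for Myl6. For Pcp4, at 58.3 RPKM in brain, they are 1026 and 641 bases. Myl6 has 5 near-identical pseudogene copies outside the count table, so its counts depend on how reads that fit several places were handled. The 2 regulators of myosin phosphatase differed least of the 6. Ppp1r14a, which encodes the phosphatase inhibitor CPI-17, was at 14.0 ± 1.77 CPM in brain and 29.9 ± 4.13 in uterus (1.09 ± 0.12), and did not pass the 2-fold test. Ppp1r12b, which encodes a targeting subunit of the phosphatase, was at 175 ± 11.5 and 238 ± 28.1 CPM (0.44 ± 0.09).

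Many contractile proteins have close relatives in nonmuscle cells, and the set's genes were therefore also compared with their own protein families within each library. Such a share does not depend on the scaling between libraries. Several of the set's genes, such as Myl6 and Tln1, are not confined to smooth muscle. In 18 families the share of the set's gene or genes was taken per kilobase of exon. It was higher in uterus in 15 and lower in 2, each with groups that did not overlap. Each of these had the smallest p that the two-sided exact permutation test can give, 0.0286 (adjusted p = 0.0303 over 18 families). Gene levels did not overlap either for 42.0% of all genes tested in each direction, so the absence of overlap alone says little.

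Transgelin showed the widest difference. Tagln made up 3.43, 3.49, 3.49 and 2.85% of its family in the brain libraries and 82.7, 87.3, 86.3 and 84.0% in the uterus libraries. Its brain relative Tagln3 stood at 215 ± 13.2 CPM in brain and 1.87 ± 0.223 in uterus. Myh11 made up 3.58 ± 0.516% of the myosin II heavy chains in brain and 71.1 ± 1.91% in uterus, although the nonmuscle chain Myh9 was itself higher in uterus, at 612 ± 5.03 against 137 ± 7.18 CPM. Acta2 and Actg2 together made up 1.49 ± 0.118% of the actins in brain and 48.2 ± 2.71% in uterus. The cytoplasmic actins Actb and Actg1 were also higher in uterus, by 1.40 ± 0.07 and 1.32 ± 0.14 on the log2 scale. Actg1 has 4 near-identical pseudogene copies outside the table, which leaves its level, and to that extent the actin share, uncertain.

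Myl9 went from 16.4 ± 1.48% of the regulatory light chains to 83.6 ± 1.00%. A gene model that overlaps both relatives, Myl12a and Myl12b, was not in the count table, so their levels are uncertain. Synpo2 went from 13.3 ± 0.804 to 79.3 ± 1.99% of the synaptopodins, and its relative Synpo, known from dendritic spines, was the one higher in brain, by 0.93 ± 0.10 on the log2 scale. Tln1 went from 46.3 ± 1.06 to 93.4 ± 0.178% of the talins, with Tln2 higher in brain, and Cnn1 from 1.05 ± 0.0854 to 42.7 ± 3.98% of the calponins. In the calponin family the nonmuscle genes rose as well: Cnn2 by 4.33 ± 0.08 and Cnn3 by 2.71 ± 0.06 on the log2 scale.

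Flna went from 57.6 ± 3.27 to 83.8 ± 2.67% of the filamins. Lmod1, Fhl1 and the tropomyosins differed less. Lmod1 held 90.8 ± 3.62% of the leiomodins in brain and 99.6 ± 0.191% in uterus. Its relatives Lmod2 and Lmod3 did not pass the filter on low counts. They had 2, 1, 4 and 7 and 2, 4, 2 and 2 raw counts in the brain libraries, so the brain share rests on few counts. Fhl1 held 72.8 ± 0.625 and 75.5 ± 1.86% of its family, and Tpm1 with Tpm2 held 48.0 ± 1.74 and 58.7 ± 2.95% of the tropomyosins. The share fell in 2 families. Ppp1r14a fell from 44.9 ± 2.95 to 32.6 ± 2.99% of the CPI-17 family, and its relative Ppp1r14b differed more than it did, by 2.61 ± 0.07 on the log2 scale. Casq2 fell from 87.9 ± 2.16 to 64.0 ± 7.75% of the calsequestrins. The targeting subunit Ppp1r12b had 24.3 ± 1.48% in brain and 22.6 ± 1.67% in uterus (exact permutation p = 0.1714), and the groups overlapped. Tpm3 has a near-identical copy, Tpm3-rs7, in the count table, and Ppp1r14b and Fhl3 each have a copy outside it. The tropomyosin, CPI-17 and FHL shares therefore depend on how reads that fit several places were handled.

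**Figure D2:**
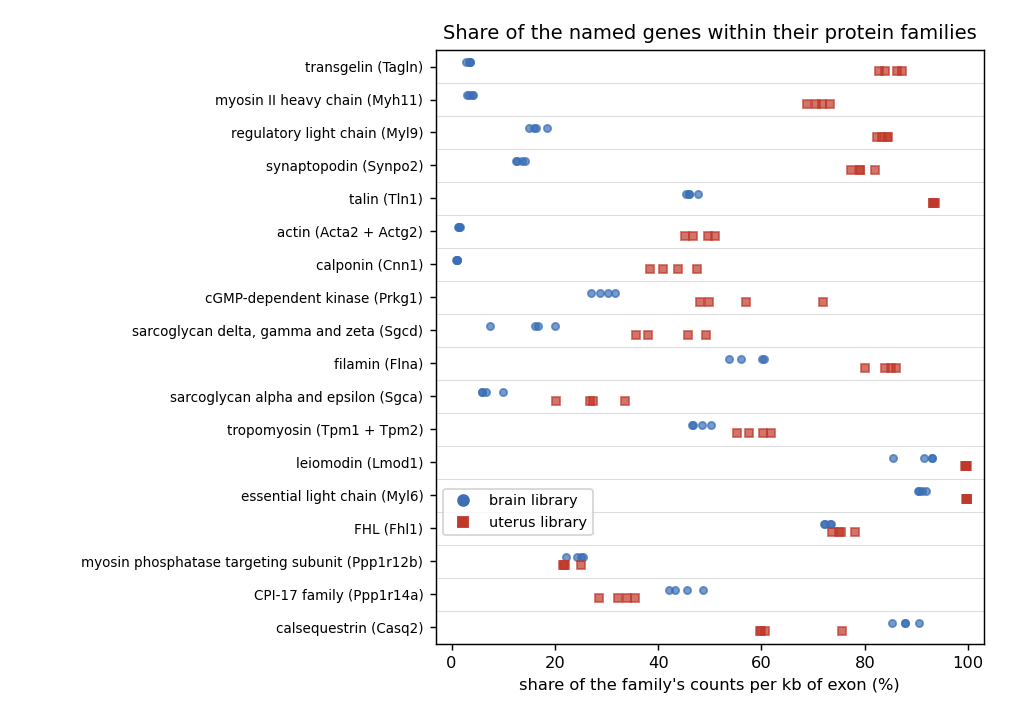
Share of the set's gene or genes within their protein family, in percent of the family's counts per kilobase of exon. Brain libraries are circles and uterus libraries squares, and the families are ordered by the difference between organs. The shares of Tagln, Myh11, Myl9 and Synpo2 lie under 20% in every brain library and above 68% in every uterus library, while the order is reversed for Ppp1r14a and Casq2.

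Among the 12 cytoskeletal and adhesion genes, 10 were higher in uterus, 8 of them by more than 2-fold, 1 was higher in brain and 1 was not called, with a median of 2.19. Des encodes desmin, the intermediate filament of muscle (chromosome 1, 75360329 to 75368579, plus strand). It stood at 3.99, 3.18, 3.95 and 3.74 CPM in brain and at 675, 777, 779 and 523 CPM in uterus. The log2 fold change was 7.53 ± 0.17, the largest outside the thin filament. Synm, the desmin partner synemin, differed far less, with 57.0 ± 3.13 and 107 ± 17.4 CPM (0.91 ± 0.11, not past 2-fold). The 2 intermediate filament genes thus stood in opposite order in the 2 organs by CPM, and also per kilobase: Synm was at 7.18 ± 0.394 RPKM and Des at 0.990 ± 0.0993 in brain, against 13.5 ± 2.20 and 183 ± 32.0 in uterus.

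Smtn, which encodes the actin-binding protein smoothelin, went from 8.25 ± 1.31 to 234 ± 36.9 CPM (4.82 ± 0.15). Pgm5, a phosphoglucomutase relative found in adhesion plaques, went from 5.61 ± 0.765 to 125 ± 13.3 CPM (4.48 ± 0.12). Flna, the actin crosslinker filamin A, went from 158 ± 9.75 to 2652 ± 149 CPM (4.07 ± 0.08) and had the highest CPM of any member in uterus, with a long transcript. Synpo2, an actin-bundling protein of the Z-line and dense body, went from 31.1 ± 1.10 to 411 ± 12.3 CPM (3.72 ± 0.05). These 4 genes each stood more than 10-fold higher in uterus.

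Talin and vinculin join integrins to actin in many cell types. Tln1 stood at 78.4 ± 2.50 CPM in brain and 327 ± 11.2 in uterus (2.06 ± 0.05), and Vcl at 31.9 ± 3.76 and 129 ± 4.76 CPM (2.01 ± 0.08). Of the exon sequence of Vcl, 25.5% is shared with exons of Ap3m1 on the other strand, and the strand setting used in counting is not given in the sources used here. Tln1 shares 3.67% of its exon sequence with Creb3 and Tagln 5.43% with Pcsk7 in the same way. Fhl1, a LIM-domain protein of muscle, was high in both organs, at 134 ± 1.35 and 236 ± 26.6 CPM (0.81 ± 0.08, not past 2-fold).

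The sarcoglycans sit in the dystrophin complex at the membrane, and both members were rare. Sgca, known from striated muscle, had 11, 14, 24 and 11 raw counts in brain and 80, 100, 67 and 51 in uterus (2.32 ± 0.32). Sgcd, the delta subunit that smooth muscle shares, was at 1.78, 1.57, 0.578 and 2.08 CPM in brain and at 2.24, 1.76, 2.69 and 2.15 CPM in uterus, and the organs overlapped. Its log2 fold change was 0.56 ± 0.34 (edgeR adjusted p = 0.15). It was called under 3 other scalings, described with the scaling below, with 0.81 to 0.83 (edgeR adjusted p = 0.042 to 0.045). Within its family Sgcd nevertheless held 15.1 ± 5.35% in brain and 42.2 ± 6.36% in uterus, as Sgcz was at 2.73 ± 0.299 CPM in brain and had 1 library above 0 in uterus.

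Ldb3 encodes a Z-disc protein, ZASP, known mainly from striated muscle. It stood at 11.7, 13.6, 11.7 and 13.4 CPM in brain and at 8.31, 9.31, 9.84 and 7.72 CPM in uterus, and every brain library lay above every uterus library. Its log2 fold change was -0.52 ± 0.11 (edgeR adjusted p = 0.0010). With library sizes alone it was -0.26 and no longer called (edgeR adjusted p = 0.052).

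Both transcription factor genes were higher in uterus. Myocd, which encodes myocardin, the SRF cofactor of smooth and cardiac muscle, had 19, 9, 18 and 26 raw counts in brain and 558, 417, 471 and 531 in uterus. Its CPM was 0.438 ± 0.174 in brain and 12.0 ± 1.75 in uterus, a log2 fold change of 4.78 ± 0.26. At 1.88 ± 0.272 RPKM it was a low transcript even in uterus. Srf itself was broadly present. It stood at 45.1, 51.9, 50.1 and 48.0 CPM in brain and at 93.4, 96.8, 97.2 and 88.1 CPM in uterus (log2 fold change 0.94 ± 0.06), and it did not pass the 2-fold test. The cofactor was thus rare in brain, while the DNA-binding partner was not.

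SRF binds the CArG box, a run of A or T bases between CC and GG, and the promoters of the members were searched for it. RefSeq promoters (GRCm38.p6, 250 bases before to 50 after the start site) were at hand for 29 of the 33 members. Those of Actg2, Tagln, Myh11 and Myocd were missing, so these genes were not searched. The motif reads the same on both strands. An exact box lay in the promoters of 6 of the 29 (20.7%), namely Fhl1, Ldb3, Myl6, Myl9, Srf and Vcl, against 488 of 27025 genes with a promoter (1.81%). With 1 mismatch allowed, 17 of 29 (58.6%) held a box, against 23.8% of all genes. Among listed relatives of the members, not all of them nonmuscle genes, 3 of 22 (13.6%) held an exact box. A match describes these letters only. The windows around the boxes are shown because they carry the motif that links several members, 5′ to 3′ on the strand of the gene, with the box in capitals.
Srf (chr17:46556200-46556259, minus): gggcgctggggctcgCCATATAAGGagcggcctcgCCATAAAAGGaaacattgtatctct
Vcl (chr14:20929156-20929195, plus): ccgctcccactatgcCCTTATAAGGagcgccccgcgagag
Myl9 (chr2:156775288-156775327, plus): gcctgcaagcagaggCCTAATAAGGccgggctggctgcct
Fhl1 (chrX:56779566-56779605, plus): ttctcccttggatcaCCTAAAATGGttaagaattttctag
Ldb3 (chr14:34588692-34588731, minus): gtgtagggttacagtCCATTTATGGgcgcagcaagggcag

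Srf carried 2 exact boxes, which begin 82 and 62 bases before its start site. The box of Vcl begins 227 bases before the start, that of Myl9 161, that of Fhl1 102 and that of Ldb3 109. The same Ldb3 box begins 35 bases before another start site of that gene. Myl6 holds CCTTATATGG 50 bases before its start. Acta2 holds no exact box but 2 with 1 mismatch, CCCTATATGG and CCTTGTTTGG, which begin 84 and 34 bases before the start. The windows around these Acta2 and Myl6 boxes lie wholly inside exons that another annotation, GENCODE M21, gives the genes (90 of 90 and 40 of 40 bases). For these 2 genes, before the start therefore holds only for the RefSeq start site used. The log2 fold changes of the members with an exact box were these: Myl9 at 5.35, Myl6 at 2.19, Vcl at 2.01, Srf at 0.94, Fhl1 at 0.81 and Ldb3 at -0.52. Cnn1, Des and Tpm2, which had some of the largest differences, held none in this window even with 1 mismatch.

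Of the 5 genes of calcium and cGMP signalling, 4 were higher in uterus, 2 of them by more than 2-fold, and 1 was higher in brain, with a median of 0.95. Mrvi1 encodes the substrate through which the cGMP-dependent kinase restrains calcium release. It stood at 6.15, 7.13, 7.90 and 6.84 CPM in brain and at 134, 108, 131 and 133 CPM in uterus (4.17 ± 0.10). Pde5a, the phosphodiesterase that breaks down cGMP, went from 35.7 ± 1.60 to 105 ± 17.2 CPM (1.56 ± 0.11). Prkg1, the kinase itself, stood at 13.4, 11.5, 10.5 and 12.2 CPM in brain and at 16.7, 24.8, 18.2 and 32.0 CPM in uterus (0.95 ± 0.19, edgeR adjusted p = 0.0010). Its uterus libraries spread more than those of any other member, with a coefficient of variation of 30.5%. Within its family Prkg1 held 29.4 ± 1.98% in brain and 56.8 ± 10.8% in uterus, beside Prkg2.

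Pcp4 encodes a small protein of calcium signalling, known from Purkinje cells as well as from myometrium. It stood at 60.1, 59.3, 60.6 and 59.1 CPM in brain and at 61.3, 85.6, 91.2 and 66.6 CPM in uterus. The log2 fold change was 0.35 ± 0.12 (edgeR adjusted p = 0.017), and the lowest uterus library lay just above the highest brain library. The 5 Purkinje cell markers summed to 1677 to 1893 CPM in brain and 155 to 320 in uterus, and their part in the brain level of Pcp4 was not tested. Casq2, the calsequestrin that stores calcium in cardiac and some smooth muscle, stood at 11.2, 10.3, 10.5 and 10.8 CPM in brain and at 8.64, 5.34, 8.93 and 5.73 CPM in uterus. Its log2 fold change was -0.58 ± 0.17 (edgeR adjusted p = 0.0096), and with library sizes alone it was -0.32 and not called (edgeR adjusted p = 0.11).

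**Figure D3:**
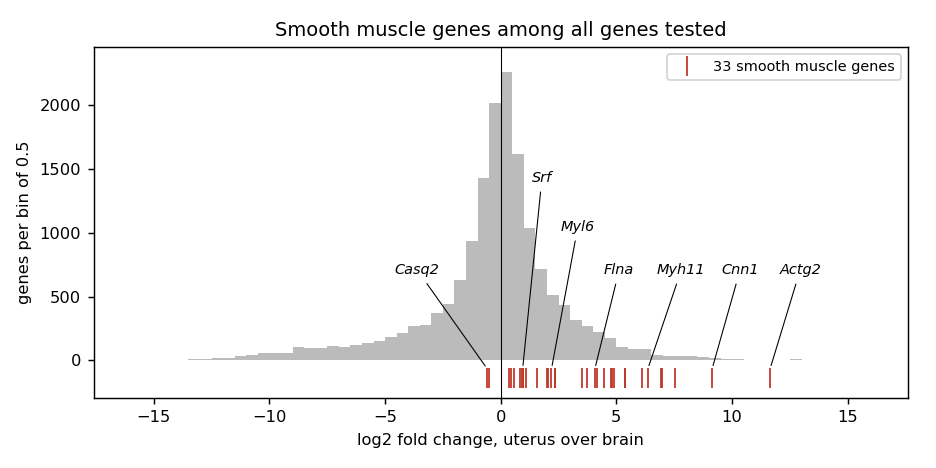
Number of genes by log2 fold change of uterus over brain in bins of 0.5 (grey), for all genes tested, with the 33 smooth muscle genes as ticks under the axis. The ticks run from -0.58 (Casq2) to 11.64 (Actg2), with a median of 3.50, while the grey distribution is centred near 0.

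The scaling between such unlike organs is itself a choice. The median log2 fold change of all genes tested, 0.01 with TMM, was 0.27 with upper-quartile scaling, 0.27 with library sizes alone and 0.28 with library sizes that leave out the 20 top genes and the mitochondrial genes. Only the members near 0 were touched: Casq2 was called under none of these 3, Ldb3 only under upper-quartile scaling (-0.26, edgeR adjusted p = 0.041), and Sgcd was called under all 3. For the other 30 members the direction and the call at 0.05 were the same under each scaling. Srf and Ppp1r14a passed the 2-fold test under all 3, and Synm under the last.

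The uterus libraries differed among themselves in the contractile genes. Over the 29 members with at least 10 CPM in uterus, the median coefficient of variation was 10.7%, beside 6.94% over the 10571 genes at that level. In brain it was 6.00% over 23 members, beside 5.44% over all. Library 4 was low: 4 of the 33 genes lay above their uterus mean in library 4, against 17, 21 and 26 in libraries 1 to 3, and the mean deviation was -0.14 on the log2 scale against 0.01, 0.03 and 0.10. In library 4 none of the thin filament or myosin genes lay above the mean. Prkg1, Vcl, Mrvi1 and Myocd were the members above it, with Prkg1 at 32.0 CPM there. Leaving library 4 out changed no member's call at 0.05, but Ppp1r14a then passed the 2-fold test (1.19, glmTreat adjusted p = 0.027), which raised the count past 2-fold from 23 to 24.

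Markers of other cells moved between the same libraries. Markers with 0 counts in any library of either organ were left out, which left 6 stromal, 5 epithelial and 4 mesothelial genes. In library 4, stromal genes deviated by 0.12 and epithelial genes by 0.22, while mesothelial genes deviated by -0.55. In library 3, where the members were highest, stromal genes deviated by -0.12 and mesothelial genes by 0.44. The makeup of the pieces taken and its part in these differences was not tested.

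**Figure D4:**
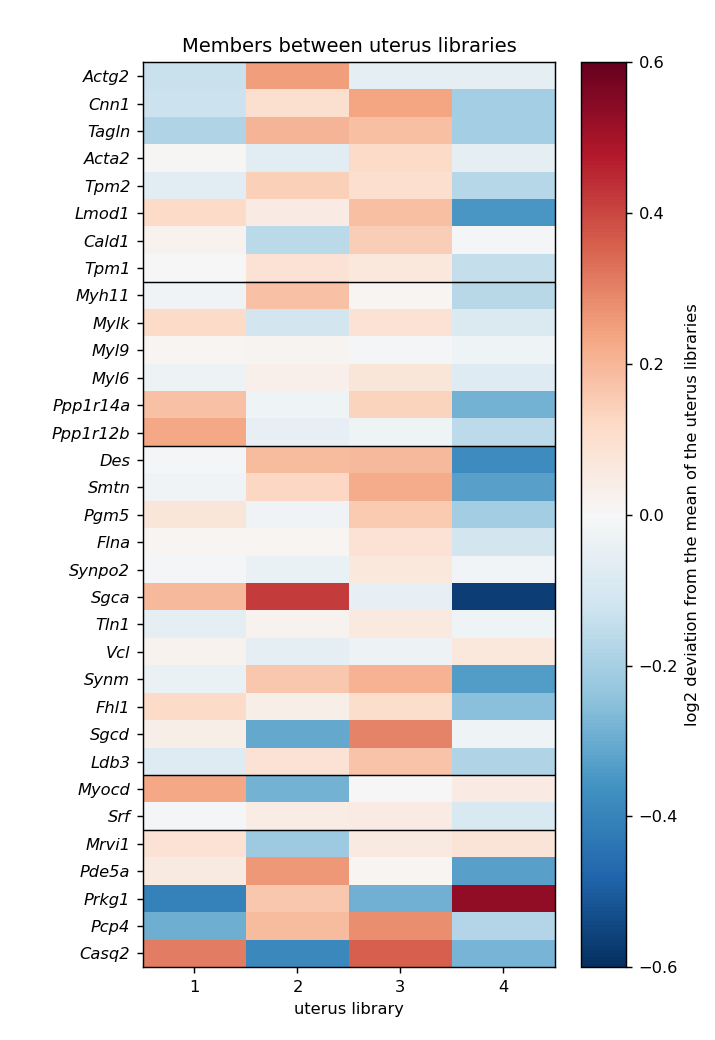
Deviation of each gene from its mean over the uterus libraries, on the log2 scale, with genes in rows by role and the 4 uterus libraries in columns. Library 4 is below the mean (blue) for most rows, with Prkg1 as the clearest exception, and library 3 is above it (red) for 26 of 33.

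Other muscle and vessel cells also make these proteins, and their markers were measured in the same libraries. Of 17 striated muscle markers, 13 passed the filter. Of these 13, 6 were higher in uterus and 7 in brain, beside 43.5% and 43.6% of all genes tested. All 17 summed to 27.9 to 31.2 CPM in brain and 137 to 202 in uterus, mostly from Acta1, at 119 ± 31.2 CPM in uterus. The striated troponins Tnnt2, Tnni2 and Tnnt3 were also higher in uterus, at 20.3 ± 11.7, 13.4 ± 4.13 and 7.52 ± 1.38 CPM, against 3.91 ± 0.273, 0.0712 ± 0.0587 and 0.182 ± 0.146 in brain. The striated myosin Myh2 was at 0 in every uterus library, and the cardiac myosins Myh6 and Myh7 stood at 0.176 ± 0.0820 and 0.0315 ± 0.0629 CPM in uterus. Tnnc2 was at 0 in every brain library and had 3, 1, 2 and 0 raw counts in the uterus libraries, too few to pass the filter. The 8 pericyte markers summed to 280 to 304 CPM in brain and 1090 to 1161 in uterus, with 7 higher in uterus and none at 0. The 6 stromal markers summed to 150 to 161 CPM in brain and 11120 to 13870 in uterus, and all 6 were higher in uterus. The 5 endothelial markers summed to 92.4 to 104 and 771 to 866 CPM. The part of these cells in the levels of the 33 genes was not tested.

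Genes that work beside the contractile apparatus were taken from 5 lists. Of all genes tested, 43.5% were higher in uterus and 43.6% in brain, and the counts of each list are to be read beside these shares. Of 32 genes of the dystrophin complex and the membrane plaques, uterus had the higher level of 23 and brain of 6 (median 1.30). Pdlim3, which binds alpha-actinin, went from 2.10 ± 0.458 to 288 ± 28.7 CPM (7.10 ± 0.15), and the fibronectin receptor subunit Itga5 from 6.33 ± 0.366 to 186 ± 24.4 CPM (4.87 ± 0.11). The dystrobrevins Dtna and Dtnb went the other way, with -3.71 ± 0.14 and -2.00 ± 0.09. Of 26 tested genes on a list of relatives of the members, not all of them nonmuscle genes, 16 stood higher in uterus and 9 lower (median 1.20). Among them Flnc and Tagln2 were higher in uterus, by 5.60 ± 0.09 and 4.58 ± 0.09, and Myl6b in brain (-2.81 ± 0.16).

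Of 15 cofactors and regulators of SRF, 10 stood higher in uterus and 5 lower (median 1.25), beside 43.5% and 43.6% of all genes tested. The largest differences toward uterus were those of Gata6 (5.52 ± 0.49), Tead3 (4.06 ± 0.08) and Csrp2 (3.39 ± 0.16). Mef2c and Elk1 were higher in brain (-2.86 ± 0.07 and -1.25 ± 0.07). The myocardin relatives Mkl1 and Mkl2, which unlike Myocd are made in most cells, were also higher in brain, at 51.1 ± 4.53 against 30.9 ± 1.20 CPM and at 237 ± 5.80 against 116 ± 7.67 CPM, and were picked for this contrast after their values were seen.

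Of 26 genes of calcium channels and stores, 10 stood higher in uterus and 15 lower (median -0.32), beside 43.5% and 43.6% of all genes tested. Kcnmb1, the smooth muscle beta subunit of the BK potassium channel, was higher in uterus, at 18.5 ± 3.75 against 0.963 ± 0.320 CPM (4.25 ± 0.24). The neuronal beta subunit Kcnmb4 was higher in brain (-6.12 ± 0.25). The chloride channel gene Ano1 was higher in uterus (4.13 ± 0.10), and the ryanodine receptor genes Ryr1 and Ryr2 in brain (-5.42 ± 0.11 and -5.26 ± 0.14). Upper-quartile scaling and both scalings by library size gave 10 and 12 for this list.

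Of 11 entries of nitric oxide and cGMP signalling, 5 stood higher in uterus and 6 lower (median -0.40), shares near those of all genes tested. Upper-quartile scaling and both scalings by library size gave 5 and 5. Nos1, the neuronal nitric oxide synthase, was at 97.2 ± 8.18 CPM in brain and 0.553 ± 0.244 in uterus (-7.44 ± 0.19), and Pde1a was also higher in brain (-2.63 ± 0.05). Npr1, the receptor for natriuretic peptides, and Pde3a were higher in uterus (2.62 ± 0.11 and 2.17 ± 0.09). Pde2a has 2 entries under 1 symbol, which went in opposite directions (4.66 ± 0.74 and -3.99 ± 0.15).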

How the data were processed

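Total RNA libraries of whole brain and whole uterus, 4 each, were made with a stranded kit that removes ribosomal RNA, per the labels' protocols. The authors deposited 1 table of raw counts per gene, not normalized. The submitters' processing notes list FastQC, HISAT2 2.0.3, featureCounts, edgeR and, as genome, GRCm38.p5. Which annotation release and strand setting were used in counting, and how reads that fit several places were treated, is not given in the sources used here. Where reads of overlapping genes or copies were dropped, the counts of those genes are too low.

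Groups were taken from the sample titles. Whole-number counts were tested with edgeR 4.0.16 in R 4.3.3 (TMM, filterByExpr by organ, glmQLFTest, two-sided, and glmTreat at 2-fold), with Benjamini-Hochberg adjustment over all genes tested. The standard error is the unshrunken log2 fold change over the square root of F. RPKM used the union of exons in GENCODE M21 (GRCm38), in which 19774 of the 19884 identifiers were found. In the table, 894 genes had 0 counts in all 8 libraries. Shares were compared by exact permutation over libraries, in Python 3.11.15. Copies were sought with BLAST+ 2.17.0 at 98% identity over at least 150 nt. Promoters came from RefSeq (GRCm38.p6). Scripts were tested on simulated counts. The TMM factors of the brain libraries ran from 0.907 to 0.924, those of the uterus libraries from 1.07 to 1.11.

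The members, families, lists and tests were chosen with earlier results of these data known. Named genes were all members, genes of their families, and from each list the 3 called genes that changed most (reaching 1 CPM in either organ) and up to 2 called genes at 10 CPM or more against the list's median. Alternatives were DESeq2 1.42.0, limma 3.58.1 (voom), other scalings and filters, a replicate block, other lengths, and leaving out each library. The edgeR p-values set the difference between organs against the spread between libraries, with 1 dispersion for both organs. Those of the exact permutation test cannot fall below 0.0286 with this many libraries. No pair of libraries agreed within sampling noise. A further list of signalling genes is not reported here.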

Additional observations from a re-analysis of the deposited data

Results flagged for a closer look

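Over 102 groups of 4 libraries (each member's CPM and each family share, by organ), 7 held a library that lay apart from the other 3 by Dixon's criterion at the 95% level. Chance gives about 1 in 20 such groups. In brain, Cald1 was high in library 1, at 61.8 CPM, Smtn was high in library 3, at 10.2 CPM, and Ppp1r12b was low in library 3, at 158 CPM. The transgelin share was low in brain library 4, at 2.85%. In uterus, Mrvi1 was low in library 2, at 108 CPM. The share of Ppp1r12b in its family was high in uterus library 1, at 25.1%, and that of Casq2 among the calsequestrins was high in uterus library 3, at 75.6%.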

How the results depend on the processing

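The number of members higher in uterus, 30, ranged from 29 at a threshold of 0.01 to 31 under upper-quartile scaling and both scalings by library size, and the number past 2-fold from 23 to 26. The number higher in brain, 2, was 1 under upper-quartile scaling, 0 with library size alone and 0 with library sizes that leave out the 20 top genes and the mitochondrial genes, because these scalings move all genes toward uterus. Allowing 1 mismatch raised the members with a CArG box from 6 to 17. Leaving out 1 library at a time, the difference of the FHL share ran from 1.88 to 3.35 percentage points and that of the calsequestrin share from -27.8 to -22.5. Without any 1 brain library the adjusted exact permutation p of both was 0.0605, although the groups still did not overlap. With groups of unequal size, moving the uterus library nearest to brain into the brain group gives a difference at least as large. Of 561 log2 fold changes of members under alternatives, 553 kept their direction and call. The other 8 were those of Casq2, Ldb3 and Sgcd given above. Same-numbered libraries of the organs did not deviate together (correlations of -0.048, 0.0019, 0.083 and 0.0735). Organs so unlike could give such values even from 1 mouse, so this cannot decide whether the numbers mark pairs. The main fit took no pairs because the labels name none. A replicate block gave 30 members higher in uterus, 2 in brain and 23 past 2-fold, and changed no call. Depth limits Actg2, Myocd and Sgca in brain, which rest on 4 to 26 raw counts a library.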
